A study of Ictidomys tridecemlineatus with 31 samples.

Results

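Potassium channel genes were taken as the rows whose gene symbol begins with KCN followed by family letters and a number, with 1 row kept per symbol. They came to 27 of the 12863 genes measured in kidneys of 31 13-lined ground squirrels (13-LGS), which hibernate through alternating bouts of cold torpor and brief rewarming. Of the 27, 26 encode channel subunits. The remaining symbol, KCNQ1OT1, names a non-coding RNA, and its row (G7175) carries that name only by sequence similarity. The RefSeq annotation of another 13-LGS assembly (mIctTri1.hap1) lists 92 protein-coding genes with a KCN symbol, and 25 of them were among the rows analysed here.

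Potassium channels let potassium ions leave cells, and so set the membrane voltage that drives transport across kidney epithelia. Along the nephron, inward rectifiers recycle potassium past the sodium pump in the thick ascending limb and distal tubule, apical channels of the collecting duct secrete potassium into the urine, and voltage-gated and 2-pore channels hold the voltage of proximal tubule cells. Electrically silent and auxiliary subunits carry no current alone and alter the gating or traffic of the channels they join.

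Each kidney came from 1 animal carrying a temperature device, and a fragment of the frozen organ gave the RNA. The active-season groups were summer active animals (SA, n = 5), and spring dark animals (SpD, n = 5), which had ended hibernation but were still in the dark. The 4 hibernation-season groups were interbout aroused animals (IBA, n = 5), recently rewarmed from torpor, animals in entrance to torpor (Ent, n = 5), and animals in early arousal (EAr, n = 5) and late arousal (LAr, n = 6), both still cool and rewarming. No deep torpor group was in the table. There were 17 females and 14 males, with 2 or 3 animals of each sex in every group. Libraries of 9 animals, 3 each of IBA, Ent, and SpD, were made with a TruSeq stranded kit (experiment 1), and those of the other 22 with a Nugen kit (experiment 2), so SA, EAr, and LAr came from experiment 2 alone. Animals are separate biological replicates.

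Values are the authors' batch-corrected regularized log (rlog) values, on a log2 scale on which a difference of 1 is a 2-fold difference. They ran from 4.11 to 19.79, and the animals' medians over genes lay between 9.74 and 9.88. They are not per transcript length, so levels are compared between states and never between genes, and rlog pulls the differences of low genes toward 0. Sequencing depth is unknown because the table holds no counts. Differences were fitted with limma over all genes with terms for state, sex, and experiment, and q is the Benjamini-Hochberg adjusted p of that fit. Unless stated otherwise they rest on 29 animals, without K113 (LAr) and K137 (SA), which the study left out of its own tests.

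Adrenal gland and T lymphocyte markers (0 of 6 and 0 of 3 listed genes) were not among the rows, whereas all 4 proximal tubule markers and both podocyte markers were. K113, K137, and K130 (SpD) stood apart from their groups in regional markers. The mean of 4 inner medulla markers (Slc14a2, Akr1b1, Slc6a12, and Slc5a3) was 13.21 in K113, 13.73 in K137, and 12.72 in K130, above the others of their groups (9.95 to 10.26 in LAr, 10.08 to 11.71 in SA, and 10.70 to 11.87 in SpD). Over the other 28 kidneys it ran from 9.90 to 12.70, and the highest, an IBA kidney, had nearly the level of K130. Their proximal tubule marker means were 13.46, 14.08, and 13.21, below every other kidney of their groups. In bulk tissue, fewer cells of a type and less RNA per cell cannot be told apart.

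The authors kept genes at or above 7 on this scale in 4 or more animals of some group, and 23 of the 27 genes met that minimum in all 6 groups. The other 4 met it only in some. Kcnf1 did so only in IBA, Ent, EAr, and LAr, Kcnh1 only in Ent and LAr, Kcnj3 only in SA, and Kcnj8 only in SpD. By these values, the 4 were in the table only through those groups, so some difference between states was built into them. Those groups had the highest means in Kcnf1, Kcnj3, and Kcnj8. Kcnh1 instead had its highest mean in SA (7.39 in the 29 animals), which did not meet the minimum. Counts are also given for the 23.

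Across the 6 states, 2 of the 27 genes passed the study's threshold of q under 0.001, Kcnf1 (q = 1.16e-07) and Kcne3 (q = 0.00013), against 9.34% of all genes. At q under 0.05, 11 passed, against 46.1% of all genes, and over the 23 these counts were 1 and 8. The counts over the 27 are 7.41% and 40.7% of the 27, so neither share exceeded that of all genes. The spread within states was wider in these genes, with a median residual SD of 0.294 against 0.155 over all genes, and so were the differences between states, whose median absolute seasonal size was 0.208 against 0.113. By mean level, the highest state was SpD in 9 genes, SA in 8, LAr in 4, Ent in 3, EAr in 3, and IBA in 0. The lowest was IBA in 11 genes and SA in 7. The orders were not counted over all genes, so these counts do not set the 27 apart. Some also rest on small ranges of state means, down to 0.137 in Kcnj16.

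**Figure D1:**
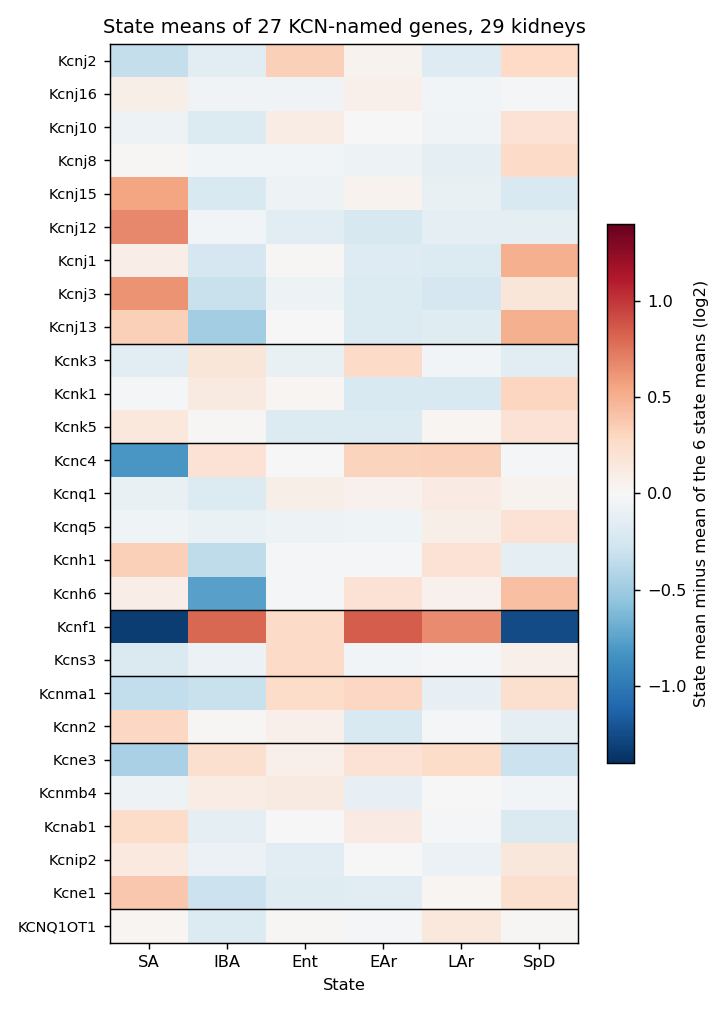
Mean rlog value of each of the 27 KCN-named genes in each state (29 animals), minus the mean of its 6 state means, on a log2 colour scale with red above and blue below, and black lines between families. Kcnf1 is low in SA and SpD and high in the 4 hibernation states, whereas IBA is the lowest state of 11 genes.

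Kcnf1 (gene10545), an electrically silent subunit that forms no channel alone and modifies channels of the Kcnb family, was higher in every hibernating kidney than in every active one. In SA the animals had 5.94, 5.71, 6.41, and 6.14, with 5.96 in K137, and in SpD they had 5.79 (K130), 6.68, 5.99, 5.81, and 6.34. In IBA the values were 7.59, 7.61, 8.48, 8.77, and 8.47, and in Ent 7.83, 7.78, 8.03, 7.67, and 6.93. The EAr kidneys had 8.13, 7.83, 8.64, 8.67, and 7.87, and the LAr kidneys 8.34, 7.75, 7.40, 8.59, and 8.12, with 7.62 in K113. Over all 31 animals, the lowest of the 21 hibernating kidneys (6.93, K8 in Ent) stood 0.247 above the highest of the 10 active ones (6.68, K3 in SpD), so the seasons did not overlap, with or without K113, K137, and K130.

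**Figure D2:**
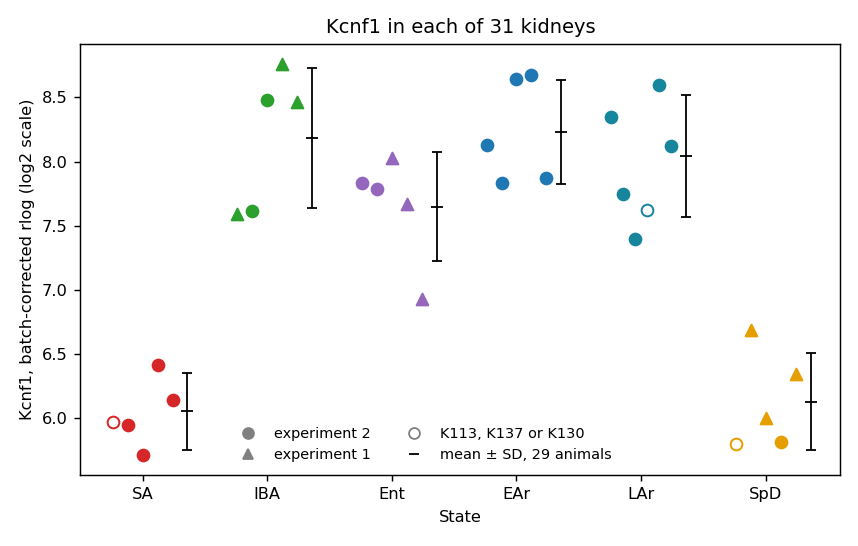
Kcnf1 rlog value (log2 scale) in each of the 31 kidneys by state, with circles for experiment 2, triangles for experiment 1, open circles for K113, K137, and K130, and black bars for the mean ± SD of the 29 animals. All 21 hibernating kidneys lie between 6.93 and 8.77, above the 10 active ones, which lie between 5.71 and 6.68.

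The mean of the 4 hibernation states exceeded that of SA and SpD by 1.94 (SE 0.15, q = 5.28e-09, limma), a 3.84-fold difference. Kcnf1 had the most positive seasonal difference of all 12863 genes, and the 14th largest in either direction. It reached the authors' minimum only in the 4 hibernation states, so some seasonal difference was built into its place in the table. Its rank, its lack of overlap, and its q values by season and between IBA and SA or SpD are therefore description. Only 39 genes (0.303%) had no overlap between the seasons in the 29 animals, 25 of them higher in hibernation, and Kcnf1 had the largest difference of those 25. It kept the first place in 33 of 36 other settings and took the second in the other 3, which were without K130, without K9, and with experiment 2 alone. Without K130, the difference was 1.86 (q = 1.53e-08), and in all 31 animals it was 1.91 (q = 1.94e-09).

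Taken pair by pair, Kcnf1 rose 4.27-fold from SA to IBA (6.05 ± 0.30, SD, n = 4, to 8.18 ± 0.55, n = 5), a fitted difference of 2.10 (SE 0.277, q = 2.49e-05, limma). It fell by 2.06 on the log2 scale from IBA to SpD (SE 0.236, q = 1.3e-05, limma). The drop was found in both library kits, with a difference of -1.94 in experiment 1 (3 animals a group) and -2.24 in experiment 2 (2 a group). With experiment 2 fitted alone, it missed the 0.001 threshold (q = 0.00258). SA and SpD differed by -0.04 (95% interval -0.609 to 0.535, q = 0.942). Within hibernation, no step passed, although the intervals of Ent minus IBA (-0.53, -1.02 to -0.0477) and EAr minus Ent (0.58, 0.0342 to 1.13) did not reach 0, with q of 0.132 and 0.666. The order of state means was EAr, IBA, LAr, Ent, SpD, and SA. The animals of neighbouring states in this order overlapped, except between Ent and SpD, where the season changes.

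Kcns3, the other electrically silent subunit among the rows, had a seasonal difference of 0.10 (SE 0.11, q = 0.506). It lies near Kcnf1 on the same chromosome in the RefSeq assembly, with 18 protein-coding genes between them. Kcnf1 and Kcns3 subunits join the products of the Kcnb genes, but no row of the table carried a Kcnb symbol, so their levels are unknown here.

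Kcne3 (gene6747), a single-pass auxiliary subunit that holds Kcnq1 channels open, was the other gene higher in hibernation at q under 0.001. The 4 SA animals had 9.61, 9.37, 9.85, and 9.51, and the 5 SpD animals 10.01 (K130), 9.69, 9.46, 9.29, and 10.24. The IBA animals had 10.40, 10.30, 10.26, 10.13, and 10.24, and over all 20 hibernating kidneys of the 29 the values ran from 9.89 to 10.51. IBA stood wholly above the 4 SA animals, whereas 2 SpD animals reached the hibernation range. K137, the SA animal left out of the fit, had 10.33, above the highest of its 4 group mates (9.85).

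The seasonal difference of Kcne3 was 0.57 (SE 0.0742, q = 5.34e-06, limma), a 1.48-fold difference, and it stayed under 0.001 in all 31 animals (0.47, q = 0.000434). IBA exceeded SA by 0.67 (q = 0.00132), and SpD was 0.53 lower than IBA (difference -0.53, q = 0.0047). With K113 and K137 in the fit, the test across states gave q = 0.0082 and the IBA minus SA difference was 0.50 (q = 0.0555). Its partner Kcnq1 (gene22853), the voltage-gated pore that auxiliary Kcne subunits modify, had a seasonal difference of 0.04 (SE 0.0994, q = 0.756) and state means between 10.09 in IBA and 10.39 in LAr.

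The seasonal comparison asks which genes differ between the months of torpor and arousal and the months of steady warm body temperature. At q under 0.001, 3 of the 27 genes differed by season, Kcnf1 and Kcne3 higher and Kcnj13 lower in hibernation, against 9.73% of all genes. At q under 0.05, 10 differed, against 33.4% of all genes. Of these, 3 were higher in hibernation (Kcnf1, Kcne3, and Kcnc4, against 16.6% of all genes) and 7 were lower (Kcnj13, Kcnj3, Kcne1, Kcnj1, Kcnj12, Kcnh6, and Kcnip2, against 16.8%). Of the 23 genes that passed the minimum in every group, 2 passed at q under 0.001, and at q under 0.05 2 were higher and 6 lower. The median seasonal difference was -0.102 over the 27 genes, -0.0984 over the 23, and 0.000242 over all genes. Without K130, 6 genes passed at q under 0.001, with Kcne1 (-0.52), Kcnj12 (-0.53), and Kcnj3 (-0.67) added, all lower in hibernation, against 10.1% of all genes.

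**Figure D3:**
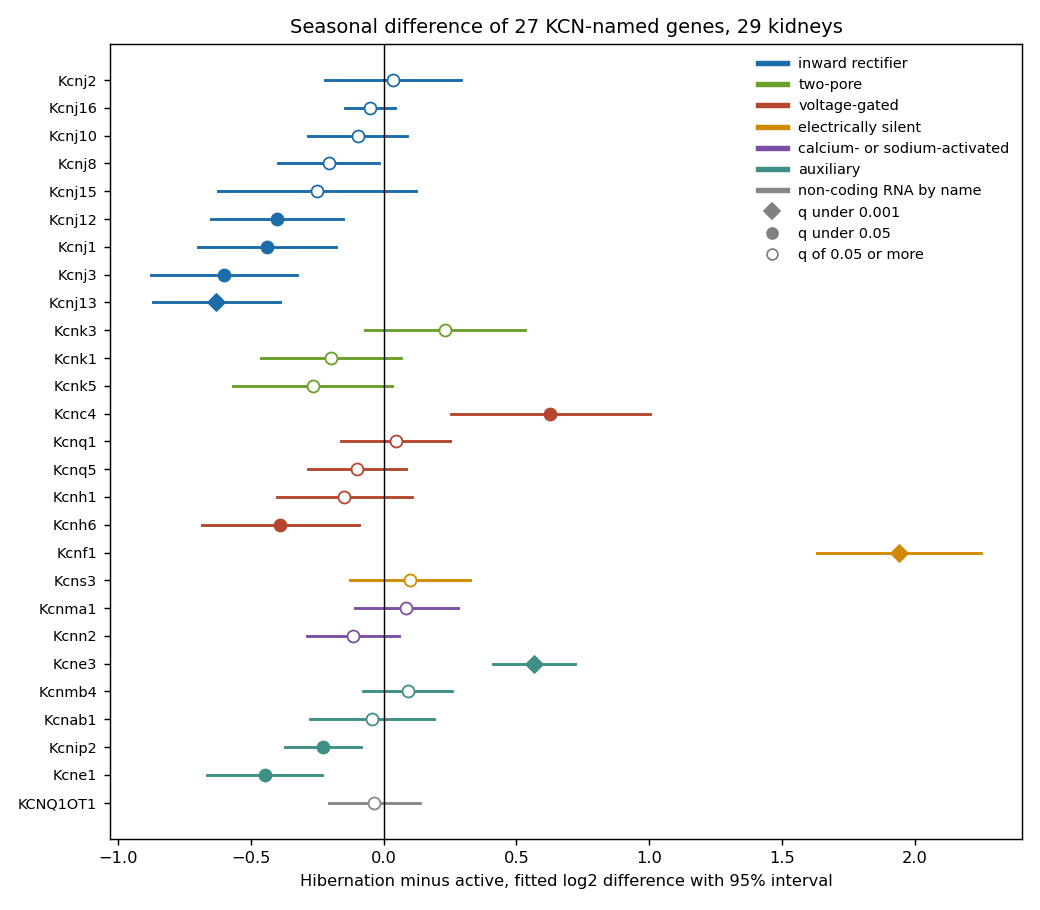
Fitted difference between the 4 hibernation states and the 2 active states for each of the 27 KCN-named genes (29 animals), with its 95% interval as a line, colours for families, diamonds for q under 0.001, and filled circles for q under 0.05. Kcnf1 stands at 1.94, Kcne3 and Kcnc4 follow at 0.57 and 0.63, and 4 of the 9 inward rectifiers are among the 7 genes that are lower.

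Among the 9 inward rectifier genes, 4 were lower in hibernation at q under 0.05 and 0 were higher, against 16.8% and 16.6% of all genes, with a family median of -0.251. One of the 4, Kcnj3, was in the table only through its SA values. Kcnj13 (gene9683), a low-conductance rectifier that works beside the sodium pump in epithelia, had the lowest q of them. Its SA values were 9.43, 9.84, 9.11, and 9.76, with 9.34 in K137, and its SpD values were 9.82 (K130), 9.98, 9.90, 9.51, and 9.29. The IBA values were 8.83, 8.77, 8.69, 8.92, and 8.35, so that every IBA kidney lay below every SA and SpD kidney. Ent, EAr, and LAr lay between, with means of 9.20, 9.01, and 9.03, and 1 Ent animal reached 9.75.

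Kcnj13 was 0.63 lower in hibernation (difference -0.63, SE 0.115, q = 0.000214, limma). IBA was 0.79 lower than SA (difference -0.79, q = 0.0104), and SpD exceeded IBA by 0.99 (SE 0.181, q = 0.000994), with 1.02 in experiment 1 and 0.935 in experiment 2. The last q lies at the threshold and passed it in only 5 of the 29 fits that left out 1 animal, with a highest q of 0.00534, and it missed 0.001 in 7 of the 9 other settings, with q of 0.0788 in experiment 2 fitted alone. The seasonal q was 0.00115 without K139 (SA) and 0.00752 in experiment 2, where the q of IBA against SA was 0.0533. The mean of the 4 proximal tubule markers ran from 13.44 to 14.43 in IBA, below the 14.97 to 15.23 of the 4 SA kidneys and overlapping the 14.25 to 15.10 of the SpD kidneys other than K130. The part of this difference in the Kcnj13 result was not tested.

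Kcnj3, a G protein-gated rectifier subunit, was highest in SA, where the 4 animals had 7.60, 8.01, 7.57, and 7.63, and K137 had 6.70. The IBA animals had 6.53, 6.62, 6.80, 7.04, and 6.82, wholly below the 4 SA animals. The difference between IBA and SA was -0.96 (SE 0.245, q = 0.00697), and -0.76 (q = 0.0672) with K137 and K113 included. By season the difference was -0.60 (SE 0.133, q = 0.00125). As Kcnj3 reached the authors' minimum only in SA, its place in the table rests on that group.

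Kcnj12, a strong inward rectifier of excitable cells, had SA values of 8.16, 8.10, 8.42, and 8.29, above the 7.07 to 7.81 of all 20 hibernating kidneys in the fit. K137 had 7.23, and K130 had the lowest SpD value, 6.47, against 7.99, 7.72, 7.69, and 7.30 in the other 4. SA exceeded SpD by 0.90 (SE 0.222, q = 0.0154) in the 29 animals, but by 0.48 (q = 0.145) without K130 and by 0.69 (q = 0.14) in all 31. IBA was 0.80 lower than SA (difference -0.80, q = 0.0118), a call lost in all 31 animals (q = 0.122) and without K104 of IBA (q = 0.0722). The seasonal difference of -0.40 (q = 0.0121) was -0.53 (q = 8.42e-05) without K130, -0.32 (q = 0.0774) in all 31, and -0.20 (q = 0.309) in experiment 2 alone.

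Kcnj1, the channel of apical potassium recycling in the thick ascending limb and of secretion in the collecting duct, had its highest values in SpD. They were 13.01, 13.15, 13.60, and 12.84, with 14.44 in K130, whereas the IBA kidneys had 12.75, 12.97, 12.73, 12.48, and 12.45. The ranges overlapped between 12.84 and 12.97. SpD exceeded IBA by 0.73 (SE 0.198, q = 0.0172), and by 0.45 (q = 0.0409) without K130. The difference was 0.441 within experiment 1 and 1.17 within experiment 2, where K130 is 1 of the 2 SpD animals. The seasonal difference was -0.44 (SE 0.126, q = 0.0092). Loop of Henle markers (Slc12a1 and Umod) had a mean of 16.53 in K130, above the 15.21 to 16.09 of the other SpD kidneys, and their part in the Kcnj1 values was not tested.

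The other 5 inward rectifiers passed in no comparison at q under 0.05. Kcnj10 and Kcnj16 encode subunits that pair in the basolateral membrane of distal tubule cells. Kcnj16 was the steadiest of the 27 genes across the states, with a range of state means of 0.137 and a seasonal difference of -0.05 (95% interval -0.145 to 0.0430). Kcnj10 had a seasonal difference of -0.10 (q = 0.416). Kcnj15, a rectifier of the proximal tubule, had means of 12.88 ± 0.58 (SD, n = 4) in SA and 12.12 ± 0.43 (n = 5) in IBA, a fitted difference of -0.89 (SE 0.332, q = 0.055). Kcnj2 and Kcnj16 are neighbours in the RefSeq assembly, with 0 protein-coding genes between them. Their state orders differed, Kcnj2 being highest in Ent and Kcnj16 in SA. Kcnj8, the pore of the vascular ATP-sensitive channel, had a seasonal difference of -0.21 (q = 0.0872).

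**Figure D4:**
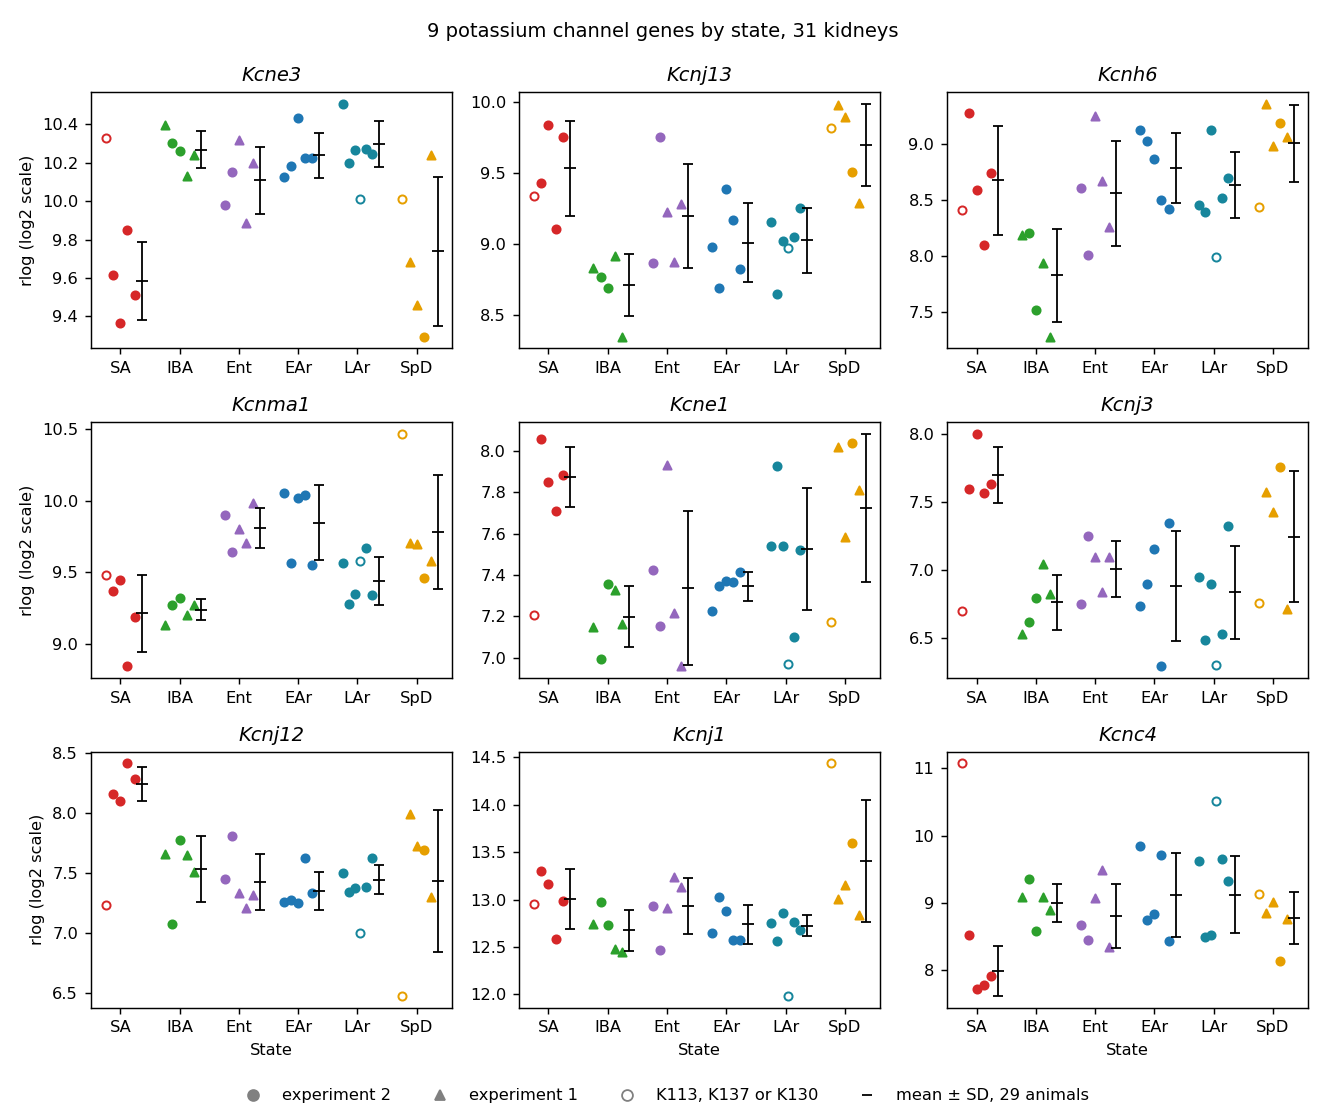
Values (rlog, log2 scale) of 9 genes in each of the 31 kidneys by state, with circles for experiment 2, triangles for experiment 1, open circles for K113, K137, and K130, and bars for the mean ± SD of the 29 animals, each panel on its own axis. Kcne3 is low in SA and in most SpD kidneys, Kcnj13 and Kcnh6 are lowest in IBA, and Kcnma1 is low in both SA and IBA.

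Kcnh6 (gene11266), a voltage-gated subunit of the ether-a-go-go related group, had a different course from Kcnf1, with its lowest mean in IBA. The IBA animals had 8.19, 8.21, 7.52, 7.94, and 7.28. The LAr animals had 8.46, 8.39, 9.12, 8.52, and 8.70, with 7.99 in K113, and the SpD animals had 8.44 (K130), 9.36, 8.99, 9.18, and 9.06. Every IBA kidney lay below every SpD kidney and below the 5 LAr kidneys in the fit, whereas 1 Ent kidney, 1 SA kidney, and K113 fell within the range of IBA.

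IBA was lower than LAr by 0.96 (difference -0.96, SE 0.252, q = 0.0114, limma) and lower than SA by 1.02 (difference -1.02, SE 0.265, q = 0.00789). Ent exceeded IBA by 0.73 (SE 0.225, q = 0.0332), and SpD exceeded IBA by 1.18 (SE 0.225, q = 0.00146). The Ent difference was 0.924 within experiment 1 and 0.446 within experiment 2, and it missed 0.05 without K1, K171, or K7 of IBA or K155 or K2 of Ent, with a highest q of 0.108. The seasonal difference of -0.39 (q = 0.0388) lost its call in 12 of the 29 fits that left out 1 animal, with a highest q of 0.154. In experiment 2 fitted alone, only the difference between IBA and SA kept its call, with q of 0.0375, 0.0714 for LAr, 0.421 for Ent, 0.0654 for SpD, and 0.101 for the season.

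Kcnc4, a fast voltage-gated subunit, was lowest in SA, with 8.53, 7.73, 7.78, and 7.92 against 9.08, 9.36, 8.58, 9.09, and 8.89 in IBA. K137 had 11.08, the highest Kcnc4 value of all kidneys. IBA exceeded SA by 0.89, which was not called at q under 0.05. The SpD mean was 8.78, near the 8.81 of Ent, and SpD minus IBA was -0.22 (95% interval -0.808 to 0.368). The seasonal difference was 0.63 (SE 0.182, q = 0.00995) in the 29 animals, 0.37 (q = 0.338) in all 31, and 0.66 (q = 0.0566) in experiment 2 alone. It lay mainly in the low SA kidneys and not in both active groups. Kcnh1, a voltage-gated subunit that reached the authors' minimum only in Ent and LAr, was lower in IBA than in SA (-0.90, q = 0.00694) and than in LAr (-0.75, q = 0.0201). In all 31 animals, neither passed (q = 0.139 for IBA against SA), and the LAr difference was also lost without K104 (q = 0.0861) and in experiment 2 alone (q = 0.0685). Kcnq5, a slow voltage-gated subunit, had a seasonal difference of -0.10 (q = 0.396). Its value in K130 was 6.88, below the 7.31 to 7.94 of the other SpD kidneys. Without K130, Kcnq5 passed q under 0.05 across states (q = 0.032, limma, against 0.365 in the 29 animals) and between SpD and IBA.

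Kcnma1 (gene9176), the pore of the large-conductance calcium-activated channel that secretes potassium at high tubular flow, was low in SA and IBA and higher in Ent and EAr. The IBA animals had 9.13, 9.27, 9.32, 9.20, and 9.28, and the Ent animals 9.90, 9.65, 9.81, 9.71, and 9.98, with no overlap. The EAr animals had 10.06, 9.57, 10.02, 10.04, and 9.55, and the LAr animals 9.56, 9.28, 9.35, 9.67, and 9.35. The SA animals had 9.37, 9.45, 8.84, and 9.19, and K130 had the highest value, 10.47, against 9.46 to 9.71 in the other SpD animals.

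Ent exceeded IBA by 0.57 (SE 0.148, q = 0.0148, limma), with 0.630 in experiment 1 and 0.479 in experiment 2, and kept its call without any 1 animal, but not in experiment 2 fitted alone (q = 0.469). SpD exceeded IBA by 0.54 (q = 0.0183) and SA by 0.65 (SA minus SpD -0.65, q = 0.0221), but without K130 these were 0.36 (q = 0.0568) and -0.36 (q = 0.214), and the SA difference was also lost without K140 and in all 31 animals (q = 0.0712). In experiment 2 alone, the q of SpD against IBA was 0.172. By season the difference was 0.09 (SE 0.0946, q = 0.509). Its auxiliary subunit gene Kcnmb4 had a seasonal difference of 0.09 (q = 0.413) and a range of state means of 0.241. Kcnn2, a small-conductance calcium-activated channel, was highest in SA (9.98 ± 0.045, SD, n = 4), and its difference from SpD was 0.47 (SE 0.155, q = 0.0533).

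Of the 5 auxiliary subunit genes, 1 was higher (Kcne3) and 2 were lower in hibernation at q under 0.05, against 16.6% and 16.8% of all genes. Kcne1, which slows the Kcnq1 channel that Kcne3 holds open, moved opposite to Kcne3, at -0.45 (SE 0.104, q = 0.00202) by season and -0.75 (SE 0.193, q = 0.0077) from SA to IBA. Its SA values were 8.06, 7.85, 7.71, and 7.88, with 7.21 in K137, and its IBA values were 7.15, 6.99, 7.35, 7.33, and 7.17. The 4 SA kidneys lay wholly above IBA, and with K137 and K113 in the fit the difference was -0.61 (q = 0.0602). SpD exceeded IBA by 0.53 (q = 0.0371), a call lost on leaving out any 1 of 7 of the 10 animals compared, in all 31 animals (q = 0.0813), and in experiment 2 alone (q = 0.167). Kcnip2, a calcium-binding partner of A-type channels, was lower in hibernation by 0.23 (difference -0.23, SE 0.0696, q = 0.014), but by 0.11 (difference -0.11, q = 0.106) in experiment 2 alone. Kcnab1, a cytoplasmic subunit of voltage-gated channels, had a difference of -0.04 (q = 0.798).

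The 3 two-pore genes, which encode background channels, had no seasonal call in limma, at q under 0.05 (0 of 3) or at an unadjusted p under 0.05 (0 of 3, against 43.4% of all genes). The seasonal difference of Kcnk1 was -0.20 (95% interval -0.464 to 0.0666). That of Kcnk5, a pH-sensitive channel of the proximal tubule, was -0.27 (-0.568 to 0.0328), and that of Kcnk3 was 0.23 (-0.0717 to 0.531).

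Along the sequence of states, the 27 genes had more calls at the steps into and out of the season than at the steps between the cool states, as all genes did. Between IBA and SA, 1 gene passed at q under 0.001 (Kcnf1, against 3.15% of all genes) and 8 at q under 0.05 (against 22.9%). Of the 8, 2 were higher in IBA (Kcnf1 and Kcne3, against 10.4%) and 6 were lower (Kcne1, Kcnh1, Kcnh6, Kcnj12, Kcnj13, and Kcnj3, against 12.5%), and 7 of the 27 genes had no overlap between the 2 groups, against 18.8% of all genes. Over the 23 genes, 0 passed at q under 0.001, and at q under 0.05 1 was higher and 4 lower. In all 31 animals, 3 genes passed at q under 0.05, 1 higher and 2 lower, against 10.0% of all genes.

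Between SpD and IBA, 2 genes passed at q under 0.001 (Kcnf1 and Kcnj13, against 1.25%) and 7 at q under 0.05 (against 11.9%). Of the 7, 5 were higher in SpD (Kcnh6, Kcnj13, Kcnj1, Kcnma1, and Kcne1, against 6.48%) and 2 were lower (Kcnf1 and Kcne3, against 5.42%). Over the 23 genes, 1 passed at q under 0.001, and at q under 0.05 5 were higher and 1 lower. The IBA/SA and SpD/IBA comparisons share the IBA animals. Kcnf1 and Kcne3 were higher in IBA in both, and Kcnj13, Kcnh6, and Kcne1 were lower in IBA in both.

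Between the 2 active groups (SA/SpD), 0 genes passed at q under 0.001 in limma, against 0.0544% of all genes, and 2 passed at q under 0.05 (Kcnj12 and Kcnma1, against 10.5%), with 10 at an unadjusted p under 0.05 (against 29.1%). Both calls were lost without K130. From IBA to Ent, 0 passed at q under 0.001 (against 0.746%) and 2 at q under 0.05 (Kcnh6 and Kcnma1, against 13.1%), with 5 at an unadjusted p under 0.05 (against 29.4%). From LAr to IBA, 0 passed at q under 0.001 (against 1.43%) and 2 at q under 0.05 (Kcnh1 and Kcnh6, against 18.0%), with 5 at an unadjusted p under 0.05 (against 33.4%). Over the 23 genes, the counts at q under 0.05 were 2, 2, and 1 in these 3 comparisons.

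The steps within the cool phase had few calls in any gene. Between EAr and Ent, 0 of the 27 genes passed at q under 0.001 (against 0.132%) or under 0.05 (against 0.257%), with 2 at an unadjusted p under 0.05 (against 7.16%). Between LAr and EAr, 0 passed at q under 0.001 (against 0.295%) or 0.05 (against 0.575%), with 1 at an unadjusted p under 0.05 (against 8.33%), Kcnma1 (difference -0.40, q = 0.428). Between the sexes, 0 passed at q under 0.001 (against 0.0233%) or 0.05 (against 0.218%), with 4 at an unadjusted p under 0.05 (against 6.41%), among them Kcnf1, which was 0.37 higher in males (SE 0.141, n = 29 animals) and did not pass the adjustment. No gene of the table (0.00%) had a seasonal difference that differed between the sexes at q under 0.05 in limma, and 6 of the 27 did at an unadjusted p under 0.05, against 3.93% of all genes. The lowest q of these was that of Kcne3 (0.322), with a seasonal difference of 0.76 in females and 0.29 in males. The SpD males were only 2, K130 and K9, with Kcne3 values of 10.01 and 10.24, against 9.29 to 9.69 in the 3 SpD females. The part of K130 in the 6 differences between the sexes was not tested.

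The other genes of renal potassium and salt handling, a list of 31, were fitted in the same way, and 27 of them were analysed. Across states, 0 of the 27 passed at q under 0.001 and 6 at q under 0.05 (Slc12a2, Slc12a4, Bsnd, Sgk1, Scnn1g, and Cul3), beside the 9.34% and 46.1% of all genes. In all 31 animals, Bsnd (q = 0.157), Scnn1g (q = 0.062), and Cul3 (q = 0.381) missed 0.05. By season, 2 were higher in hibernation at q under 0.05 (against 16.6% of all genes), the potassium-chloride cotransporter Slc12a4 (0.21, q = 0.0212) and the sodium-potassium-chloride cotransporter Slc12a2 (0.21, q = 0.0221). Another 3 were lower (against 16.8%), among them Sgk1, a corticosteroid-induced kinase (-0.38, q = 0.014), and the sodium pump subunit Atp1b1 (-0.20, q = 0.0346). The list's median was -0.0548. In the comparison of IBA with SA, Slc12a4 was 0.71 higher in IBA (q = 0.000458, limma). Abcc9, the regulatory partner of Kcnj8 in vessels, had a difference of -0.19 (q = 0.313).

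K113, K137, and K130 had values outside the range of their groups in most of these genes. K113 lay above all others of LAr in 7 of the 27 genes and below all in 13, K137 above SA in 8 and below in 11, and K130 above SpD in 7 and below in 11. Over all genes, the shares above and below were 35.6% and 37.2% in K113, 33.9% and 29.5% in K137, and 32.7% and 28.4% in K130. The median absolute departure from the group mean was 0.554, 0.367, and 0.546 in the 27 genes and 0.234, 0.220, and 0.207 over all genes. Other kidneys also lay outside their groups in many of the 27. K5 of Ent lay above in 10 and below in 7, against 22.2% and 20.3% of all genes. K104 of IBA lay above in 9 and below in 7, against 17.3% and 19.7% of all genes. The median departure of K104 was 0.352 against 0.116 over all genes.

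In 4 genes (Kcnj2, Kcnc4, Kcnj8, and Kcnk1) all 3 animals lay above their groups, and in 6 (Kcnj15, Kcnj12, Kcnh1, Kcnab1, Kcne1, and Kcnq1) all 3 lay below. The share of all genes placed alike in the 3 animals was not counted, so these counts do not set the potassium channel genes apart. Kcnj2, a strong inward rectifier, was 9.77 in K113, 10.21 in K137, and 8.93 in K130, above the 7.52 to 8.33, the 7.58 to 8.03, and the 8.03 to 8.57 of the others in LAr, SA, and SpD. Kcnc4 was 10.52 in K113, 11.08 in K137, and 9.13 in K130, above the 8.50 to 9.65, the 7.73 to 8.53, and the 8.14 to 9.02 of their groups. Kcnj15 was 11.27, 11.65, and 11.24 in K113, K137, and K130. Kcnk1 and Kcnj1 stood far above the group in K130 (11.71 and 14.44), while Kcnj1 stood low in K113 (11.98). Kcnf1 lay among the others of the group in K113 and K137 and was the lowest SpD value in K130. The inner medulla markers were above the rest of the group in the same 3 kidneys, and their part in these departures was not tested.

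**Figure D5:**
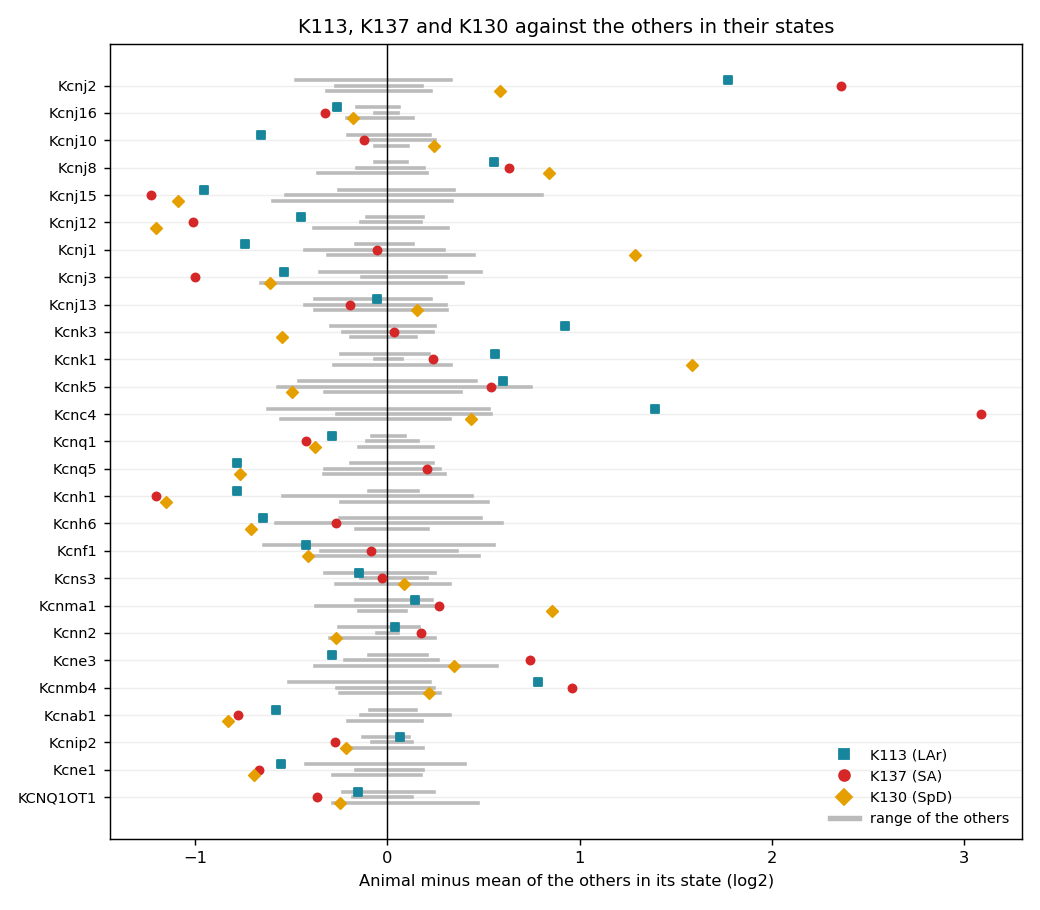
Departure of K113, K137, and K130 from the mean of the other animals in their state (log2) for each of the 27 KCN-named genes, with grey lines for the range of those others. Kcnj2 and Kcnc4 are far to the right in K113 and K137, Kcnk1 and Kcnj1 in K130, and Kcnj15, Kcnj12, Kcnh1, Kcnab1, Kcne1, and Kcnq1 are below the range of the others in all 3.

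The row named KCNQ1OT1 was 1 of 3 rows with that name by similarity, and the one with the highest mean, G7175, passed in no comparison (seasonal difference -0.04, q = 0.771). The row G26527 was higher in SpD than in IBA by 0.75 (SE 0.135, q = 0.000848) and lower in hibernation (-0.30, q = 0.00889), whereas G1757 had differences of 0.03 and -0.07 (q = 0.882 and 0.484). The 3 rows therefore did not move alike, and none can be assigned to that RNA from the name alone.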

How the data were processed

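RNA-Seq was performed by the authors on poly(A)-selected kidney RNA. Per the labels and the study's methods, reads were trimmed with cutadapt, mitochondrial reads removed with HISAT2, transcripts quantified with Salmon on the HiC_Itri_2 annotation, and genes filtered and transformed with DESeq2 (versions not given in the sources used here). The deposited values are the authors' rlog values on the log2 scale after removal of the batch effect with limma. The table holds no counts, so the authors' count-based test was replaced.

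Here, all 12863 genes were fitted in limma 3.58.1 (R 4.3.3) by state, sex, and experiment. Variances were moderated with a trend on the mean level, and p-values, all 2-sided, were adjusted by Benjamini-Hochberg per contrast. Thresholds were the study's q of 0.001 and 0.05. The fit was tested on simulated data. Alternatives were all 31 animals, no K130, experiment 2 alone, each term left out, no trend, animal weights, median centring, genes with a mean of at least 8, and each animal left out.

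Genes described in full passed q under 0.001 across states or in a pair, in the 29 or 31 animals, and those given at shorter length passed q under 0.05 or are known renal channels. Values by animal of further genes, the pairing of Kcnj2 with Kcnj16, and the genes named for K113, K137, and K130 were chosen after values were seen. The members, families, partner and marker lists, and tests were chosen with earlier results of these data known. Names and the order of neighbouring genes, and no coordinates or sequences, were taken from RefSeq (mIctTri1.hap1). Some genes of the partner list are not reported here. Figures were drawn with matplotlib 3.10.9.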

Additional observations from a re-analysis of the deposited data

Results flagged for a closer look

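In 6 of 72 groups tested (12 genes in the 6 states of the 31 animals, 5 or 6 animals a group), 1 animal's value lay farther from the others than Dixon's 95% limit. For a single group chance gives about 1 in 20, but the 72 groups share animals and are not independent. The 12 genes were those called at q under 0.05 in the fit without K113 and K137, so they were not chosen apart from those animals. Of the 6 values, 5 belong to K113, K137, or K130. The values were Kcnc4 in K137 of SA (11.0762), Kcnj12 in K137 of SA (7.22997), Kcnh1 in K113 of LAr (6.4764), Kcnj1 in K113 of LAr (11.9821), and Kcnma1 in K130 of SpD (10.47). The sixth was Kcnj12 in K158 of EAr (7.62434), an animal that lay among its group in 19 of the 27 genes. Over all genes, K158 lay above its group in 22.1% and below it in 19.3%.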

How the results depend on the processing

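The number of the 27 genes passing q under 0.001 moved with the set of animals and with the threshold, and so did the share of all genes passing, given in brackets. Across states it was 2 (9.34%), and it was 1 in all 31 animals (5.58%), 4 without K130 (9.24%), 5 with animal weights (18.9%), 1 among genes with a mean of at least 8 (8.96%), 11 at q under 0.05 (46.1%), and between 2 and 4 without each animal (6.43% to 11.1%). For SpD/IBA it was 2 (1.25%), and it was 1 in all 31 animals (0.521%), 1 without K130 (1.54%), 1 without the intensity trend (1.21%), 1 after median centring (1.15%), 0 in experiment 2 alone (0.00%), 0 among genes with a mean of at least 8 (1.12%), 7 at q under 0.05 (11.9%), and between 1 and 3 without each animal (0.420% to 1.54%). For IBA/SA it was 1 (3.15%), and it was 2 without a term for experiment (3.49%), 0 among genes with a mean of at least 8 (3.71%), 8 at q under 0.05 (22.9%), and between 1 and 2 without each animal (1.14% to 3.96%). By season it was 3 (9.73%), and it was 6 without K130 (10.1%), 10 at q under 0.05 (33.4%), and between 2 and 6 without each animal (6.80% to 12.1%). For Ent/IBA it was 0 (0.746%), and 2 with animal weights (6.77%) and 2 at q under 0.05 (13.1%). For SA/SpD and IBA/LAr it was 0 (0.0544% and 1.43%), and 2 at q under 0.05 in each (10.5% and 18.0%). EAr/Ent, LAr/EAr, and the sexes kept 0 throughout. The causes were not tested, except that the minimum mean of 8 removes Kcnf1 and 9 other genes from the test.

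Of 1165 refitted differences of called genes, 1070 kept their call, 95 lost it, and 0 changed sign. For each difference, 29 of the refits left out 1 animal, and for the pairs this was often an animal of neither group compared. The pooled count therefore says little about the other settings. Of 413 refitted tests across states, 394 kept their call. No paired analysis was possible because the replicate numbers only name animals. Depth is not known, and IBA, Ent, and SpD each have 2 animals in experiment 2, so that set has little precision.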
